A study of Homo sapiens with 18 samples.

Results

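Cells take up iron by endocytosis of transferrin and free it in endosomes, so the mRNAs of 9 iron genes were examined in cells whose endolysosomal sorting was disturbed. The question was whether these mRNAs show a sign of iron shortage when the ESCRT-I complex, which sorts membrane proteins from endosomes towards lysosomes, is depleted. The 9 genes are TFRC, STEAP3 and SLC11A2 for uptake, FTH1, FTL and NCOA4 for storage, SLC40A1 for release, and ACO1 and IREB2 for sensing. They were chosen by name, with earlier results of these data known, and each matched 1 of the 20802 RefSeq entries of the panel. RKO cells, an established line from a human colorectal carcinoma, all received 30 nM of a single Silencer Select siRNA with the lipid reagent RNAiMAX and were collected after 72 h. The groups were 2 nontargeting siRNAs (siCtrl#1 and siCtrl#2), 2 siRNAs against the ESCRT-I subunit Tsg101 (siTsg101#1 and siTsg101#2) and 2 against the subunit Vps28 (siVps28#1 and siVps28#2), with 3 replicates each. No untransfected cells were analysed here, and every library comes from the same cell line. The mRNA of each of 18 cultures was measured with an amplicon panel, which reads a short stretch of each targeted transcript.

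Iron bound to transferrin enters cells through the transferrin receptor TFRC, is reduced in the endosome by STEAP3 and leaves it through the transporter SLC11A2. Cytosolic iron is stored in ferritin, a shell of FTH1 and FTL chains that NCOA4 hands to lysosomes for breakdown, and is exported by ferroportin, the product of SLC40A1. When iron is scarce, the iron regulatory proteins ACO1 and IREB2 bind hairpins called iron-responsive elements: in the 3′ UTR of TFRC this protects the mRNA, whereas in the 5′ UTR of ferritin and ferroportin mRNAs it blocks translation. Read counts follow the amount of an mRNA and not its translation.

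The hairpins are shown because they divide the members into transcripts whose amount and transcripts whose translation the iron regulatory proteins are known to control. Each is given in GRCh37 and 5′ to 3′ on the strand of the transcript, with the bulged C and the 6 bases CAGTGN of the loop in capitals, and 5 bases on each side of the paired part. The search described below found 4 of them within the 3′ UTR of TFRC on the minus strand of chromosome 3, at chr3:195777851-195777877, chr3:195777447-195777473, chr3:195777382-195777408 and chr3:195777335-195777361.
TFRC 1: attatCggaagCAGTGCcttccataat
TFRC 2: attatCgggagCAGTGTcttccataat
TFRC 3: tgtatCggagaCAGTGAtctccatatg
TFRC 4: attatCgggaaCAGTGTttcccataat
The 5′ UTRs of FTH1 (chr11:61735047-61735073, minus strand), FTL (chr19:49468593-49468619, plus strand) and SLC40A1 (chr2:190445388-190445414, minus strand) hold 1 each.
FTH1: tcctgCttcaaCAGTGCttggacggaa
FTL: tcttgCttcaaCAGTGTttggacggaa
SLC40A1: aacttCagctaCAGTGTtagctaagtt
With 1 further unpaired base allowed in the 3′ arm, the 3′ UTR of SLC11A2 (chr12:51382052-51382079, minus strand, in 8 of its 33 annotated transcripts) also held a match.
SLC11A2: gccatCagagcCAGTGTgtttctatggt
The search asked for a C, 5 bases, CAGTGN and 5 bases that pair with the first 5, a pairing of G with T included, on the strand of the transcript alone. Of 19894 protein-coding genes, 140 (0.70%) held such a match in a UTR of their main transcript, and 216 (1.09%) held the form with the extra base. The looser form also matched the 3′ UTR of IREB2, and neither form matched STEAP3, NCOA4 or ACO1. Elements that take neither form would be missed. These matches describe letters of the reference and not binding in these cells.

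Counted reads ran from 2561790 to 7466916 a library (median 5022216). The targeted mRNAs were depleted: siTsg101#1 left 3.48% of the TSG101 level of siCtrl#1 and siTsg101#2 left 2.89%, while siVps28#1 and siVps28#2 left 5.63% and 5.95% of VPS28. The intestinal marker CDX2 had 71 to 213 counts per library and the epithelial markers KRT8, KRT18 and EPCAM 14 to 517, while CDH1 and CDH17 had none and KRT19 and VIL1 at most 2. The mesenchymal marker VIM had 73 to 415 counts. Markers of leukocytes (PTPRC), hepatocytes (ALB) and erythrocytes (HBB) were at 0, those of endothelium (PECAM1) reached 2 counts and those of fibroblasts (COL1A1) 11.

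Of the 9 members, 8 had more than 100 counts over all libraries and were tested, among 10246 genes. TFRC, FTH1 and IREB2 were higher in the mean of the 4 on-target siRNAs than with siCtrl#1, and none was lower. These 3 of 8 stand beside 12.0% of all genes tested that were higher and 11.6% that were lower at an adjusted p under 0.05 in edgeR's quasi-likelihood test. TFRC and FTH1 also changed at least 1.5-fold, as did 8.40% of all genes upward and 6.57% downward. No member was lower at an unadjusted p under 0.05, a threshold that 3636 of the 10246 genes met in one direction or the other. DESeq2 called the same 3 genes, and its share over all genes is not given here. The median log2 change of the 8 tested members was 0.17, against -0.008 over all genes.

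TFRC, the receptor for iron-loaded transferrin, showed the largest change of the members. It lies on chromosome 3 of GRCh37 (195739382 to 195809024, minus strand). Levels are given in normalized CPM, the counts relative to the TMM-scaled total of the library, for replicates 1, 2 and 3 in turn. TFRC was at 174, 94.5 and 66.8 with siCtrl#1 and 94.7, 97.1 and 100.2 with siCtrl#2. Depletion of Tsg101 gave 379, 308 and 371 (siTsg101#1) or 405, 365 and 432 (siTsg101#2), and depletion of Vps28 gave 545, 383 and 378 (siVps28#1) or 435, 335 and 352 (siVps28#2). The lowest of the 12 on-target libraries was therefore above the highest of the 6 nontargeting ones, and the on-target groups overlapped one another.

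In the mean of the 4 on-target siRNAs TFRC rose 3.49-fold over siCtrl#1, a log2 change of 1.80 (standard error 0.21, 95% interval 1.37 to 2.23, adjusted p = 1.54e-06 from edgeR). The single siRNAs gave 1.66 and 1.84 for Tsg101 and 1.96 and 1.74 for Vps28, with adjusted p-values from 6.52e-06 to 2.38e-05. These values share the siCtrl#1 libraries and are not independent of each other. In RNA from whole cultures, a change in which cells make up the culture and a change in RNA per cell cannot be told apart. With siCtrl#2, TFRC differed from siCtrl#1 by -0.20 (95% interval -0.68 to 0.29, adjusted p = 0.767).

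**Figure D1:**
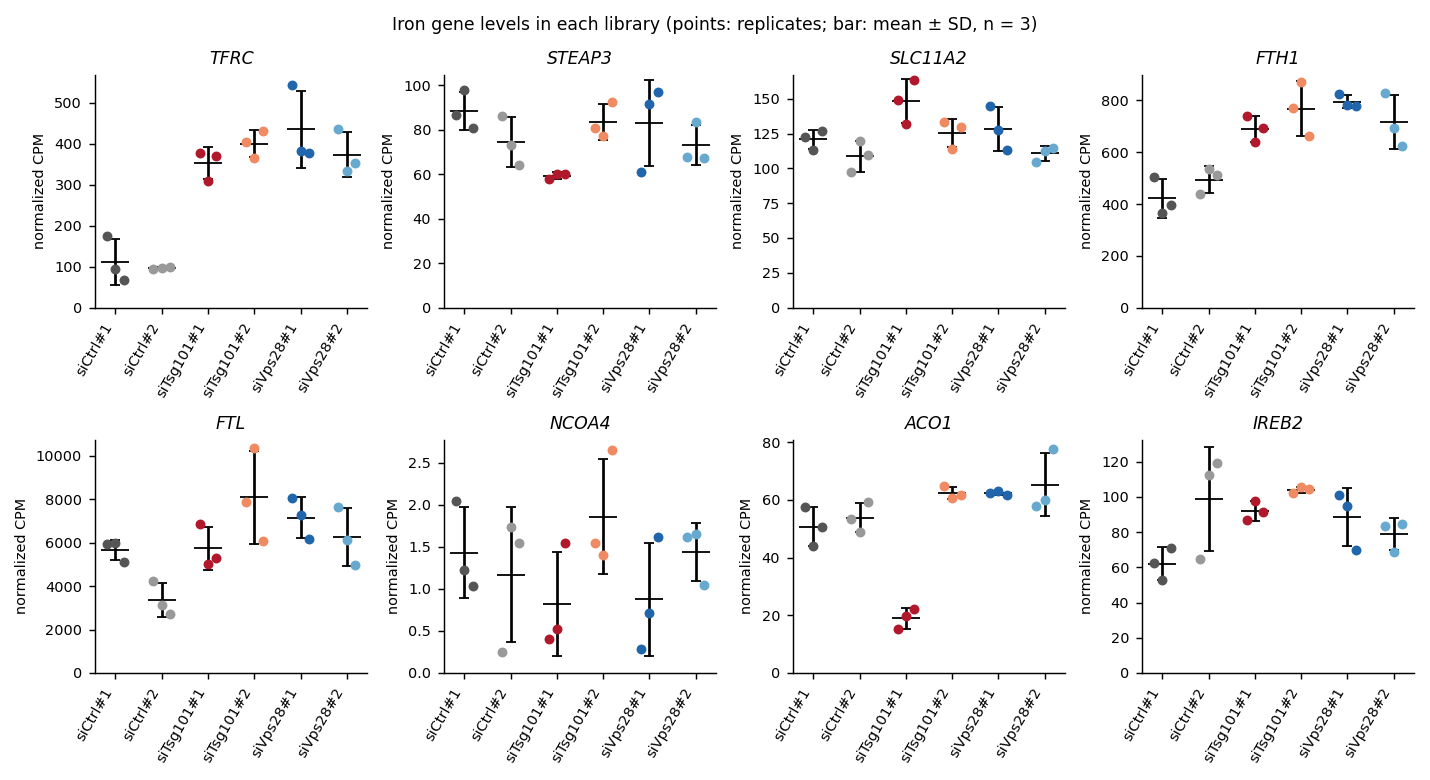
Levels of the 8 tested iron genes in normalized CPM in every library, with 3 replicates (points) and the mean ± SD (bars) for each of the 6 siRNA groups. TFRC and FTH1 lie above both nontargeting groups in every on-target library, FTL is lowest with siCtrl#2, IREB2 is lowest on average with siCtrl#1, and ACO1 is low with siTsg101#1.

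The siCtrl#1 libraries were not alike for TFRC, and each replicate number is also the batch in the labels. Within replicate 1, 2 and 3, the on-target libraries were on average 1.33, 1.87 and 2.51 above siCtrl#1 on the log2 scale. Against siCtrl#2 of the same replicate they were 2.20, 1.83 and 1.93 above. TFRC was thus higher in each batch against either nontargeting siRNA. Without replicate 1 of siCtrl#1, in which TFRC was highest among the controls, the mean change was 2.28 (adjusted p = 1.19e-07 from edgeR), and without replicate 3, in which it was lowest, it was 1.53 (adjusted p = 2.59e-05).

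The other uptake genes moved little. STEAP3, the endosomal ferrireductase (chromosome 2, 119981407 to 120023228, plus strand), had 86.6, 97.8 and 80.8 normalized CPM with siCtrl#1 and 57.6, 60.1 and 60.1 with siTsg101#1. All siTsg101#1 libraries were below all libraries of the other groups, of which the lowest, in siVps28#1, had 60.9. The log2 change with siTsg101#1 was -0.57 (standard error 0.17, adjusted p = 0.0168 from edgeR), against -0.08 with siTsg101#2, -0.08 with siVps28#1 and -0.28 with siVps28#2, none of which passed. The call with siTsg101#1 was lost against siCtrl#2 (-0.32, adjusted p = 0.207), without replicate 2 of siCtrl#1 (adjusted p = 0.0685) and without replicate 1 of siTsg101#1 (adjusted p = 0.0504). The antisense gene STEAP3-AS1 covers 500 bases of STEAP3 exons, and the strand setting of the counting was not given in the sources used here.

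SLC11A2, the divalent metal transporter that moves iron out of endosomes (chromosome 12, 51373184 to 51422349, minus strand), had group means between 109 ± 11.1 (siCtrl#2) and 148 ± 15.7 normalized CPM (SD, n = 3; siTsg101#1). Neighbouring groups in this order overlapped throughout. Its mean log2 change was 0.08 (95% interval -0.15 to 0.31, adjusted p = 0.664 from edgeR), an interval that leaves out a 1.5-fold change. With siTsg101#1 it was 0.30 above siCtrl#1 (adjusted p = 0.130) and 0.45 above siCtrl#2 (adjusted p = 0.0298).

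FTH1, the heavy chain of ferritin with the ferroxidase site (chromosome 11, 61727190 to 61735106, minus strand), rose with every on-target siRNA. Its level was 506, 365 and 394 normalized CPM with siCtrl#1 and 437, 534 and 511 with siCtrl#2. Depletion of Tsg101 gave 738, 639 and 695 (siTsg101#1) or 770, 873 and 662 (siTsg101#2), and depletion of Vps28 gave 825, 783 and 780 (siVps28#1) or 828, 694 and 624 (siVps28#2). All 12 on-target libraries were above all 6 nontargeting ones.

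The mean change of FTH1 was 0.81 on the log2 scale, or 1.76-fold (standard error 0.13, 95% interval 0.54 to 1.09, adjusted p = 9.42e-05 from edgeR). By siRNA it was 0.71, 0.87, 0.92 and 0.76 in the order siTsg101#1, siTsg101#2, siVps28#1 and siVps28#2 (adjusted p from 4.39e-04 to 0.00194). Against siCtrl#2 the mean change was 0.59 (adjusted p = 0.00286), and leaving out any 1 library gave 0.72 to 0.97 against siCtrl#1. Of the FTH1 transcript, 56.5% lies in stretches of 50 bases shared with 15 other genes, the pseudogene FTH1P10 among them, and BEST1, on the opposite strand, covers 880 bases of its exons. Reads of these loci may be counted together, and their part in the result was not tested.

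FTL, the light chain of ferritin (chromosome 19, 49468566 to 49470136, plus strand), differed between the nontargeting siRNAs, so that its change depended on the reference. It had 5922, 5965 and 5114.5 normalized CPM with siCtrl#1 but 4258, 3130 and 2733 with siCtrl#2, which do not overlap. The group means of the on-target siRNAs were 8100 ± 2140 (siTsg101#2), 7160 ± 956 (siVps28#1), 6258 ± 1335 (siVps28#2) and 5739 ± 998 (siTsg101#1; SD, n = 3). Neighbouring on-target groups overlapped in this order. All libraries of siTsg101#2 and siVps28#1 lay above those of siCtrl#1, whereas siVps28#2 and siTsg101#1 overlapped siCtrl#1.

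Relative to siCtrl#1 the mean log2 change of FTL was 0.25 (95% interval -0.08 to 0.59, adjusted p = 0.271 from edgeR) and did not pass. Relative to siCtrl#2 it was 1.00, a 2.00-fold rise (adjusted p = 2.27e-04), and relative to the mean of both it was 0.63 (adjusted p = 5.77e-04). The difference between siCtrl#2 and siCtrl#1 itself was -0.75 (adjusted p = 0.0505). With the replicate number as a block in the fit, this difference was -0.77 and passed (adjusted p = 0.00547), as did the change with siTsg101#2 against siCtrl#1 (0.50 and adjusted p = 0.0189, against 0.52 and 0.0702 without the block). The block also gave a lower FTL with siTsg101#1 than with siTsg101#2 (-0.49 and adjusted p = 0.0405, against -0.50 and 0.135 without it). Of the FTL transcript, 40.0% is shared with 2 other genes, the pseudogene FTLP3 among them.

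NCOA4, the receptor that delivers ferritin to autophagosomes (chromosome 10, 51565199 to 51590734, plus strand), had only 1 to 16 counts per library and 121 in all. Its mean log2 change of -0.18 had a 95% interval from -1.13 to 0.77 (adjusted p = 0.818 from edgeR), which does not leave out a 1.5-fold change in either direction. The transcript shares 21.1% of its length with NCOA4P3 and 1 other gene. SLC40A1, the iron exporter ferroportin (chromosome 2, 190425316 to 190448484, minus strand), had 0 counts in all 18 libraries and was not tested. The limit that a count of 0 allows, 3 counts, corresponds to 0.419 to 1.22 normalized CPM depending on the library, for counting error only. Whether the panel's amplicons for these transcripts amplify well in RKO cells was not tested.

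**Figure D2:**
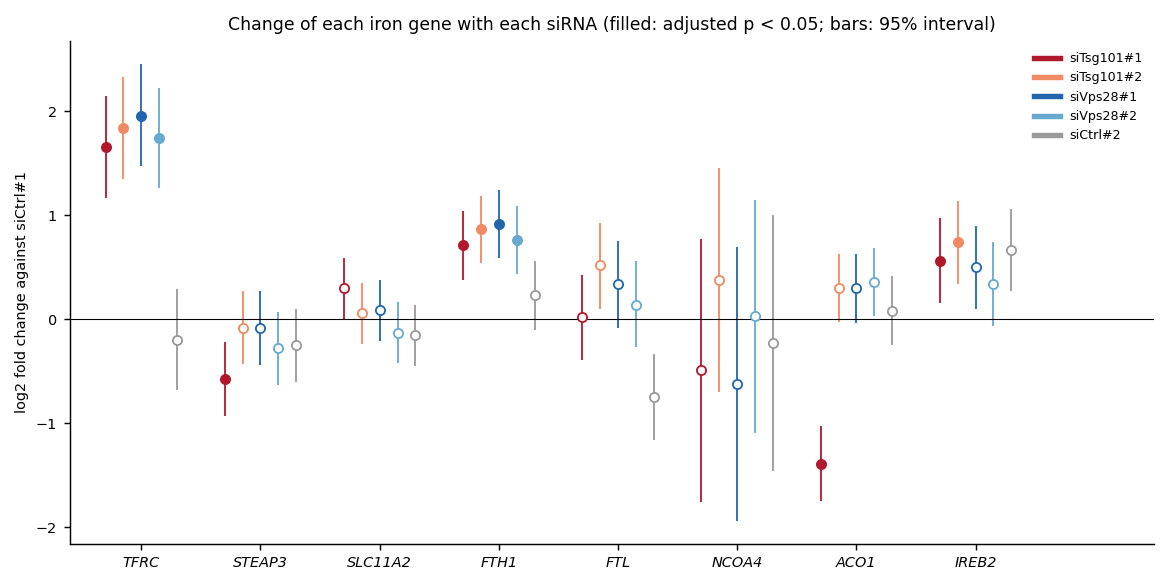
Log2 fold change against siCtrl#1 of each tested iron gene with each on-target siRNA and with siCtrl#2, with 95% intervals; filled points have an adjusted p under 0.05 in edgeR. TFRC and FTH1 are filled for all 4 on-target siRNAs, IREB2 for both siTsg101 siRNAs, ACO1 and STEAP3 for siTsg101#1 alone, and no gene for siCtrl#2.

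The sensors of iron behaved differently from each other. IREB2, which encodes iron regulatory protein 2 (chromosome 15, 78729773 to 78793795, plus strand), had 62.7, 52.6 and 71.1 normalized CPM with siCtrl#1 and 64.5, 113 and 119 with siCtrl#2. The on-target group means were 92.1 ± 5.52 and 104 ± 1.74 for siTsg101#1 and siTsg101#2, and 88.4 ± 16.5 and 78.9 ± 9.05 for siVps28#1 and siVps28#2 (SD, n = 3), within the range of siCtrl#2. Its mean change against siCtrl#1 was 0.54 on the log2 scale, or 1.45-fold (standard error 0.16, adjusted p = 0.0157 from edgeR), but against siCtrl#2 it was -0.13 (adjusted p = 0.609) and against both 0.20 (adjusted p = 0.211).

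IREB2 passed against siCtrl#1 with siTsg101#1 (0.56, adjusted p = 0.0341) and siTsg101#2 (0.74, adjusted p = 0.00832) and not with siVps28#1 (0.50, adjusted p = 0.112) or siVps28#2 (0.34, adjusted p = 0.261). The means of the siTsg101 and siVps28 groups differed by 0.23 (95% interval -0.05 to 0.51, adjusted p = 0.296). With siCtrl#2 or both nontargeting siRNAs as the reference, IREB2 passed with no single siRNA. The mean change was no longer called without replicate 1 of siCtrl#1 (0.54, adjusted p = 0.0606) or without its replicate 2 (0.43, adjusted p = 0.116). Within batches the on-target libraries were 0.57, 0.78 and 0.29 above siCtrl#1 in replicates 1, 2 and 3, while the differences from siCtrl#2 were 0.52, -0.32 and -0.46. The level of IREB2 mRNA with siCtrl#2 was itself 0.67 above siCtrl#1 (adjusted p = 0.0740).

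ACO1, the cytosolic aconitase that becomes iron regulatory protein 1 when it loses its iron-sulfur cluster (chromosome 9, 32384601 to 32454767, plus strand), was low with a single siRNA. It had 57.5, 44.0 and 50.5 normalized CPM with siCtrl#1, 53.3, 48.9 and 59.1 with siCtrl#2, and 15.1, 19.7 and 22.0 with siTsg101#1. The other on-target groups had means of 62.4 ± 2.11 (siTsg101#2), 62.4 ± 0.607 (siVps28#1) and 65.2 ± 10.9 (siVps28#2; SD, n = 3). The siTsg101#1 libraries were thus below every other library.

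The log2 change of ACO1 against siCtrl#1 was -1.39 with siTsg101#1 (standard error 0.17, adjusted p = 3.66e-06 from edgeR) and 0.30, 0.30 and 0.36 with siTsg101#2, siVps28#1 and siVps28#2, none of which passed. Both siRNAs against Tsg101 lowered TSG101 mRNA, but ACO1 differed between them by -1.69 (standard error 0.17, adjusted p = 1.63e-06). The mean of both siTsg101 groups differed from that of the siVps28 groups by -0.88 (adjusted p = 1.33e-05). This difference was -0.03 (adjusted p = 0.919) when siTsg101#1 was left out, an alternative chosen after seeing the data. The mean change over the on-target siRNAs was -0.11 (adjusted p = 0.585) and 0.32 without siTsg101#1 (adjusted p = 0.0980). Of the ACO1 transcript 1.2% is shared with other genes, and no annotated exon of another gene overlaps it.

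**Figure D3:**
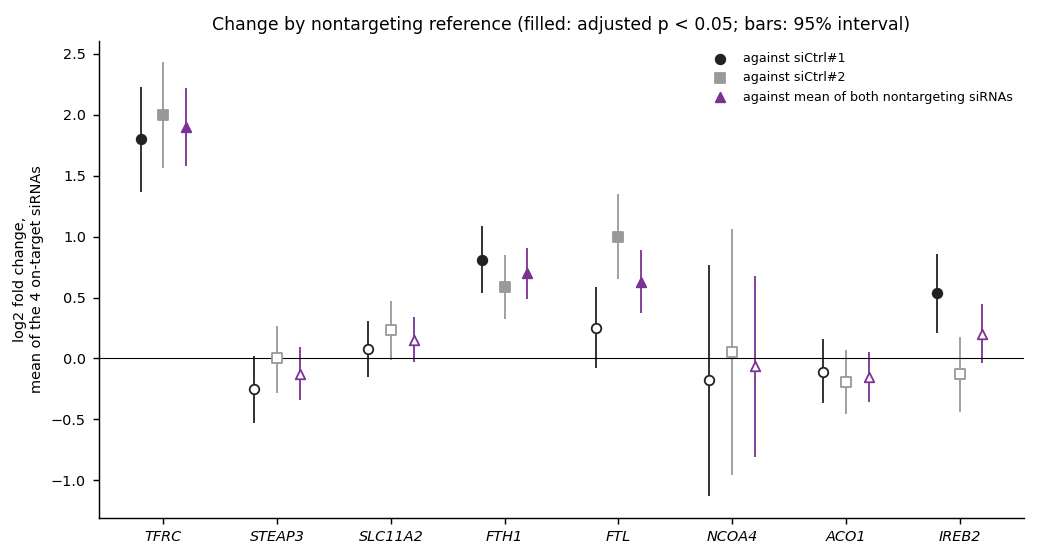
Log2 fold change of each tested iron gene averaged over the on-target siRNAs, against siCtrl#1, against siCtrl#2 and against the mean of both, with 95% intervals; filled points have an adjusted p under 0.05 in edgeR. TFRC and FTH1 are filled for each reference, FTL for siCtrl#2 and the mean of both, and IREB2 for siCtrl#1 alone.

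By single siRNA, 2 to 5 members were called against siCtrl#1. With siTsg101#1, 3 members were higher (TFRC, FTH1 and IREB2) and 2 lower (STEAP3 and ACO1), beside 13.6% of all genes higher and 12.5% lower in edgeR. With siTsg101#2, the same 3 were higher and none lower (11.3% and 9.38% of all genes). TFRC and FTH1 were the members called with siVps28#1 (5.33% of all genes higher and 4.12% lower) and with siVps28#2 (8.08% and 6.84%), and no member was lower. With siTsg101#2, siVps28#1 and siVps28#2 no member was lower at an unadjusted p under 0.05 either, and DESeq2 called none lower. Shares of all genes at an unadjusted p or by DESeq2 are not given for single siRNAs.

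Between the nontargeting siRNAs, edgeR called no member, beside 1.43% of all genes higher and 0.693% lower with siCtrl#2. At an unadjusted p under 0.05, IREB2 was higher and FTL lower with siCtrl#2, and DESeq2 called these 2 genes. Between the siTsg101 and the siVps28 groups, ACO1 was the member called (6.47% of all genes higher and 5.37% lower). TFRC differed by -0.10 there (95% interval -0.44 to 0.23) and FTH1 by -0.05 (95% interval -0.28 to 0.18), intervals that leave out a 1.5-fold difference. Between siTsg101#1 and siTsg101#2, ACO1 was again the member called (3.76% of all genes higher and 4.13% lower). Between siVps28#1 and siVps28#2 edgeR called no member, beside 0.215% of all genes higher and 0.273% lower. No member was called there by DESeq2 or at an unadjusted p under 0.05. Shares of all genes by DESeq2 or at an unadjusted p are not given for the comparisons of this paragraph.

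With siCtrl#2 as the reference, TFRC, FTH1 and FTL were called higher and no member lower (8.25% and 7.97% of all genes). With the mean of both nontargeting siRNAs the same genes were called (14.8% and 14.0% of all genes). TFRC was 2.00 above siCtrl#2 (adjusted p = 6.70e-07 from edgeR) and 1.90 above both (adjusted p = 4.30e-09).

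**Figure D4:**
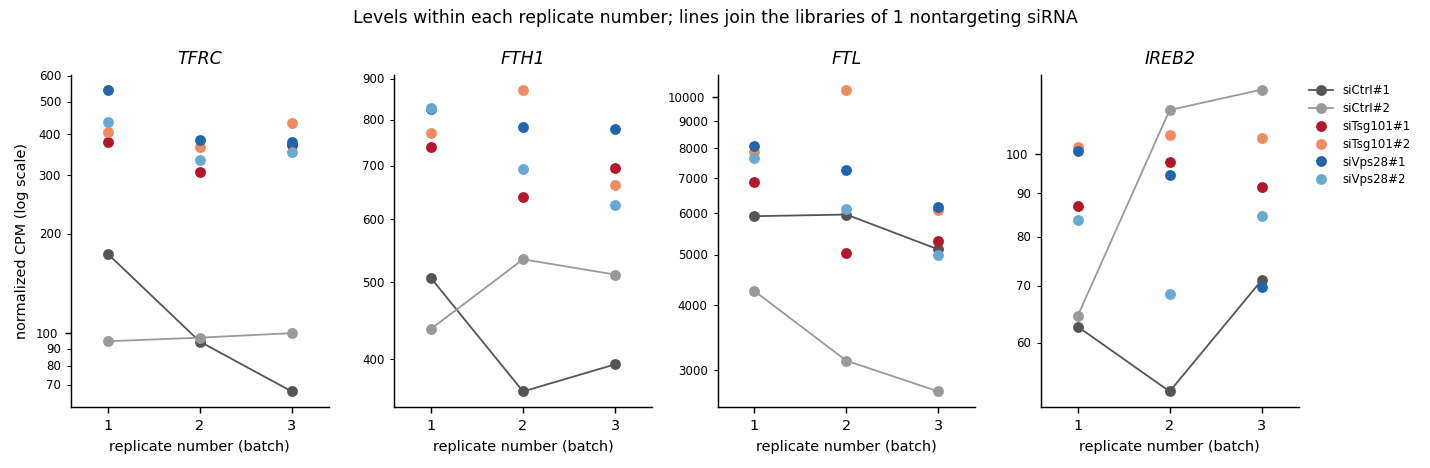
Levels of TFRC, FTH1, FTL and IREB2 in normalized CPM on a log scale, by replicate number, which is the batch in the labels; lines join the libraries of 1 nontargeting siRNA. TFRC and FTH1 of every on-target library lie above both nontargeting libraries in each batch, while IREB2 with siCtrl#2 is near siCtrl#1 in replicate 1 and above all other libraries in replicates 2 and 3.

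Other genes of iron handling were taken from 9 lists written from general knowledge, with earlier results of these data known. The counts below are therefore descriptive. The lists held 96 genes, of which 81, the members included, were tested. Of these, 15 (18.5%) were higher and 12 (14.8%) lower when all on-target siRNAs were averaged and set against siCtrl#1, and 54 passed in neither direction, beside 12.0% and 11.6% of all genes tested. The median log2 change of the 81 genes was -0.05, against -0.008 over all genes. Against siCtrl#2 there were 11 higher and 8 lower (13.6% and 9.88%, beside 8.25% and 7.97% of all genes). Against both nontargeting siRNAs 13 were higher and 14 lower (16.0% and 17.3%), near the 14.8% and 14.0% of all genes.

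Of the 9 uptake genes tested, 2 were higher and 2 lower against siCtrl#1, beside 12.0% and 11.6% of all genes tested. Beside TFRC, the zinc and iron transporter SLC39A14 rose by 0.47 (adjusted p = 0.0139 from edgeR). SLC39A8, a related transporter, fell by 0.60 (adjusted p = 0.00603) and the metalloreductase STEAP2 fell by 0.46 (adjusted p = 0.0209). Against siCtrl#2 none of these 3 passed. Of the 7 genes of storage and ferritin turnover FTH1 alone was higher and none lower, and of the 6 sensing genes IREB2 alone. FBXL5, which marks IREB2 protein for degradation when iron is plentiful, was at -0.32 against siCtrl#1 (adjusted p = 0.0501) and at -0.39 against siCtrl#2 (adjusted p = 0.0229). The heme exporter FLVCR1 was the single export gene with enough counts and did not pass (0.29, adjusted p = 0.325).

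Transcripts that are known to rise when iron is chelated, most of them targets of hypoxia-inducible factors, gave 4 higher and 1 lower of 11 tested against siCtrl#1 (median 0.34), where 12.0% and 11.6% of all genes passed. Against siCtrl#2, PDK1 alone was higher and ADM alone lower, beside 8.25% and 7.97% of all genes. The list did not move alike with each siRNA: its median was 0.56 with siTsg101#1, 0.02 with siTsg101#2 (2 higher and 2 lower), 0.43 with siVps28#1 and 0.37 with siVps28#2, and 0.23 with siCtrl#2. CA9, a carbonic anhydrase, was lower with siTsg101#2 (-2.47, adjusted p = 0.0158 from edgeR) and at 1.34 with siTsg101#1 (adjusted p = 0.0509). Its counts were low, with 6 to 21 per library for siCtrl#1, 0 to 4 for siTsg101#2 and 14 to 42 for siTsg101#1. PDK1, which restrains pyruvate dehydrogenase, rose by 1.07 (adjusted p = 4.14e-04 from edgeR) and was 1.03 above siCtrl#2, with 257 bases of overlap with the antisense gene PDK1-AS1. PDK1 did not pass with siVps28#1 (0.61, adjusted p = 0.133), and the siTsg101 and siVps28 groups differed by 0.60 (adjusted p = 0.0129). The demethylase KDM3A rose by 0.86 against siCtrl#1 (adjusted p = 0.0145) and was at 0.08 against siCtrl#2 (adjusted p = 0.870). VEGFA and BNIP3L rose by 0.50 and 0.53 against siCtrl#1 (adjusted p = 0.0197 and 0.0125) and did not pass against siCtrl#2. BNIP3L was at -0.14 with siTsg101#2, 0.99 below its value with siTsg101#1 as tested directly (adjusted p = 0.00132). ADM fell by 0.41 against siCtrl#1 (adjusted p = 0.0491) and by 0.65 against siCtrl#2 (adjusted p = 0.00353), and NDRG1, an mRNA that chelators induce in many cell types, was at 0.10 (95% interval -0.44 to 0.65, adjusted p = 0.815).

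A separate list held other transcripts with a known iron-responsive element, of which 1 of 4 tested was higher than with siCtrl#1 and none lower. Over all genes tested, 12.0% were higher and 11.6% lower. EPAS1, a hypoxia-inducible factor whose 5′ UTR holds an iron-responsive element, had 12 to 17 counts in the siCtrl#1 libraries, 24 to 27 in the siCtrl#2 libraries and 24 to 86 in the others. It rose by 1.63 (adjusted p = 2.67e-05 from edgeR) against siCtrl#1 and by 0.69 (adjusted p = 0.0246) against siCtrl#2. The mean with siVps28#1, 6.98 normalized CPM, was near the 5.91 of siCtrl#2. Means with siTsg101#1, siTsg101#2 and siVps28#2 were 10.4, 9.55 and 12.0. The other 3 tested transcripts of this list, CDC14A and CDC42BPA among them, did not pass.

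Among 13 genes of heme synthesis and breakdown, 3 were higher and 3 lower against siCtrl#1, beside 12.0% and 11.6% of all genes tested. FECH, which inserts iron into protoporphyrin, was higher with the siTsg101 siRNAs (2.01 and 1.83) than with the siVps28 siRNAs (0.49 and 0.27), a difference of 1.54 between the depletions (adjusted p = 7.54e-06 from edgeR). HMOX1 and BLVRA, the enzymes that open heme and reduce biliverdin, rose by 0.93 (adjusted p = 3.97e-06) and 0.65 (adjusted p = 0.00193), although HMOX1 was at -0.00 with siTsg101#1. Between the siTsg101 and siVps28 groups HMOX1 differed by -1.01 (adjusted p = 1.14e-07) and BLVRA by 0.47 (adjusted p = 0.0125). BLVRA did not pass with siVps28#1 (0.24, adjusted p = 0.465). The synthesis enzymes UROS and ALAD fell by 0.94 and 0.67 (adjusted p = 0.00319 and 0.0248). Both passed against siCtrl#2 as well, where they fell by 0.86 and 0.89. By single siRNA against siCtrl#1, UROS passed with all but siVps28#2 (-0.63, adjusted p = 0.146), and ALAD with siTsg101#2 alone (-1.12, adjusted p = 0.00643).

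Genes of iron-sulfur clusters were called in both directions, as were 12.0% of all genes tested upward and 11.6% downward. Of 21 genes in the list of mitochondrial iron and iron-sulfur clusters, 3 were higher and 4 lower (median -0.11). Of 9 cytosolic assembly genes none was higher and 2 were lower (median -0.20). The scaffold ISCU rose by 0.47 (adjusted p = 0.0154 from edgeR) and did not pass against siCtrl#2. CISD2, a cluster protein of the endoplasmic reticulum that was counted in the mitochondrial list, fell by 0.63 (adjusted p = 0.00101), and by 0.47 against siCtrl#2 (adjusted p = 0.0153). ABCB8, a mitochondrial transporter, was at -1.33 and -1.55 with the siTsg101 siRNAs but at 0.09 and -0.20 with siVps28#1 and siVps28#2. The depletions differed by -1.38 (adjusted p = 6.90e-04), so that its average of -0.75 (adjusted p = 0.0424) describes neither. NUBP2 and FDXR fell by 0.72 and 0.63 (adjusted p = 0.00271 and 0.0222). NUBP2 was at -0.21 with siVps28#1 (adjusted p = 0.636), and the siTsg101 and siVps28 groups differed by -0.56 (adjusted p = 0.0228). ABCB8, NUBP2 and FDXR did not pass against siCtrl#2, where FDXR was at 0.56 (adjusted p = 0.0884). FDXR was itself called between the nontargeting siRNAs, at -1.19 with siCtrl#2 against siCtrl#1 (adjusted p = 0.0173).

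**Figure D5:**
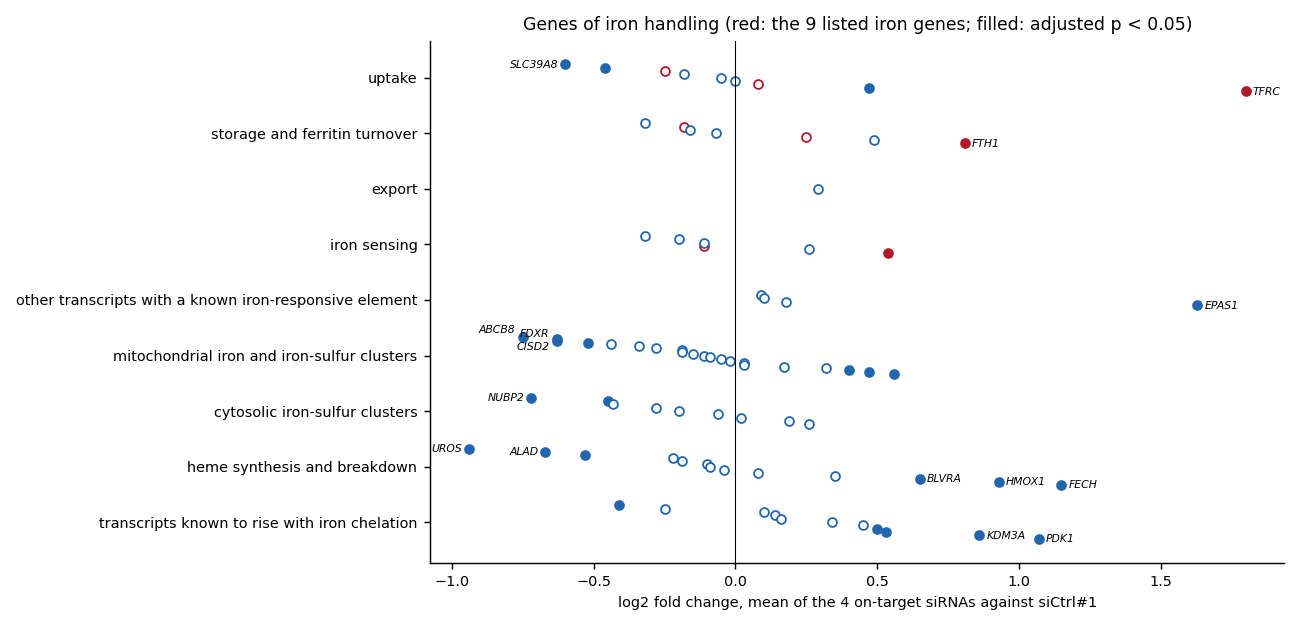
Log2 fold change, averaged over the 4 on-target siRNAs and relative to siCtrl#1, of the 81 tested genes of iron handling, 1 row per list; filled points have an adjusted p under 0.05 in edgeR, and red points are the members. TFRC and EPAS1 lie farthest to the right, and each of the longer lists has filled points on both sides of 0 except the cytosolic iron-sulfur list.

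Over the 18 libraries, the genes whose log2 level followed TFRC most closely were MGST1 (Pearson's r = 0.953), HSD17B7 (0.944) and IL32 (0.943). FTH1 was followed by SQLE (0.934), DPH3 (0.929) and TFRC (0.919), and FTL by WBP2 (0.907), FASN (0.869) and LGALS8 (0.864). The points share 6 groups and 3 batches and fall apart into depleted and control libraries, so these values describe the libraries and carry no test. For NCOA4 the highest values were 0.801 (PMS1) and 0.759 (an unnamed entry), from counts too sparse to give an order.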

How the data were processed

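Total RNA of the 18 RKO cultures was amplified with the Ion AmpliSeq transcriptome panel and read on an Ion Proton. The authors mapped reads with the Torrent aligner to hg19 transcripts of the panel and used HTSeq 0.6.0 for counting. The counts they deposited are whole reads per RefSeq entry without normalization, and the submitters' notes also name DESeq2 1.18.1. Strand setting and amplicon positions were not given in the sources used here. Lines without a gene (48.2% to 49.1% of reads without a feature and 4.71% to 5.68% of low alignment quality) and 10 spike-in targets were left out of library totals and tests. Of the 20802 entries, 20228 were matched to a symbol through RefSeq.

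Following the study's methods, entries with more than 100 counts over all libraries (10632) were kept and 386 noncoding ones dropped, leaving 10246. Counts were scaled by TMM and fitted with edgeR 4.0.16 in R 4.3.3, all 6 groups in 1 model without a block, by the quasi-likelihood test with Benjamini-Hochberg adjustment across all genes tested. A gene was called at an adjusted p under 0.05. Simulated counts of 10246 genes were drawn independently from the fitted dispersions, with few genes changed and no batch effect. Tested for the mean of the 4 siRNAs against siCtrl#1, the procedure recovered 100.0% of genes changed by 2 on the log2 scale. It recovered 89.0% of those changed by 1, with 5.50% false among the calls. These rates describe the simulation, which leaves out the batches of these libraries. Alternatives were DESeq2 1.42.0, RLE factors, 2 other count filters, all gene types, 1.5-fold in addition, a replicate block, only the groups compared, siCtrl#2 or both nontargeting siRNAs as the reference, and each library left out. Leaving out siTsg101#1 was added after seeing the data.

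Replicate numbers are the batch in the labels, which pairs the libraries. Deviations from the group means of same-numbered libraries correlated by 0.145 on average (45 pairs, -0.147 to 0.389, 30 of them over 0.1). No 2 replicates agreed within sampling noise. Members and lists were chosen with earlier results of these data known. Text names go to the 9 members, TSG101 and VPS28, list genes called with at least 1.5-fold in the mean contrast, and the 3 genes most like TFRC, FTH1, FTL and NCOA4. CA9, CDC14A, CDC42BPA, FBXL5, FLVCR1, ISCU, VEGFA, BNIP3L, ADM, NDRG1, STEAP2 and SLC39A14 were named after their values were seen. Some genes of the lists are counted but not reported here by name. Positions, shared 50-base stretches and hairpins come from the GENCODE annotation of GRCh37, by the canonical transcript. P-values and the intervals of log2 changes measure the spread between these cultures, and limits for counts of 0 cover counting error only.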

Additional observations from a re-analysis of the deposited data

Results flagged for a closer look

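Both differences that stood out under a direct test concern ACO1. The mean log2 level of both siTsg101 groups was lower than that of the siVps28 groups (-0.88, adjusted p = 1.33e-05 from edgeR). The siTsg101#1 libraries, 3 of 3 below every siVps28 library, carried this difference, which was -0.03 (adjusted p = 0.919) without them. It was also lower with siTsg101#1 than with siTsg101#2, by -1.69 (adjusted p = 1.63e-06), in each of the 3 batches (-2.06, -1.60 and -1.47). No group was large enough to look for single libraries far from the others.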

How the results depend on the processing

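Over all alternatives, 1135 of 1215 recomputed values kept their direction and their side of the threshold, 19 lost the call, 27 gained it and 34 changed sign. The calls of TFRC and FTH1 in the mean of the 4 on-target siRNAs held under every alternative run. Each cause of a change below was not tested.

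The number of members called with siCtrl#2 against siCtrl#1, 0 in edgeR, was 2 with DESeq2, 1 with RLE size factors, 2 with no low-count filter, 1 with at least 10 counts in every library and 1 with the replicate block. Leaving out 1 library at a time gave 0 to 2. The 5 members called with siTsg101#1 against siCtrl#1 became 3 at 1.5-fold and 3 to 5 with a library left out. The 1 member called between siTsg101#1 and siTsg101#2 became 2 with no low-count filter, 2 with the replicate block and 2 with only the groups compared. Leaving out siTsg101#1 gave 0 members between the siTsg101 and siVps28 groups. Apart from the 3 calls of FTL given above, the replicate block changed no call of a member. Shares of all genes called under the settings of this paragraph are not given here. Whether these counts moved more than those of other genes was not tested.

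With siCtrl#2 as the reference, the log2 change of NCOA4 in the mean of the 4 siRNAs turned to 0.05. That of IREB2 turned to -0.13 in the mean, to -0.10 for siTsg101#1 and to -0.16 and -0.33 for siVps28#1 and siVps28#2, and that of SLC11A2 to 0.03 with siVps28#2. STEAP3 turned to 0.17 with both siTsg101#2 and siVps28#1, and to 0.04 with both when the mean of both nontargeting siRNAs was the reference. Without siTsg101#1, ACO1 turned to 0.32 in the mean, and STEAP3 and FTH1 to 0.10 and 0.03 between the siTsg101 and siVps28 groups.

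With 1 library left out, values near 0 changed sign. NCOA4 ran from -0.43 to 0.17 in the mean, from -0.54 to 0.19 with siCtrl#2, from -0.22 to 0.38 with siVps28#2 and from -0.27 to 0.63 between the siTsg101 and siVps28 groups. In the last comparison FTL ran from -0.08 to 0.12 and FTH1 from -0.10 to 0.01. FTL ran from -0.13 to 0.11 with siTsg101#1 and from -0.03 to 0.28 with siVps28#2. With siVps28#1, SLC11A2 ran from -0.01 to 0.17 and STEAP3 from -0.21 to 0.09. With siCtrl#2, TFRC ran from -0.47 to 0.28 and ACO1 from -0.00 to 0.18. ACO1 ran from -0.14 to 0.08 between siVps28#1 and siVps28#2. The call of IREB2 with siTsg101#1 was lost without 5 of the 6 libraries compared (adjusted p from 0.0331 to 0.135 in edgeR). NCOA4 had too few counts for a precise value and SLC40A1 had none, and whether depth or the amplicons set this was not tested.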
